A study of Homo sapiens with 12 samples.

Results

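The replication-dependent histone genes were the 64 genes whose array annotation carries a clustered histone symbol: H2AC, H2BC, H3C or H4C followed by digits, or H1- followed by 1 to 6. They comprised 6 linker histone H1 genes, 15 H2A, 17 H2B, 10 H3 and 16 H4 genes, of which 56 lie on chromosome 6 and 6 on chromosome 1. H2AC5P, counted with H2A, and H4C10P, counted with H4, are pseudogenes, and neither was tested. Of the 64, 45 had a probe set of their own, out of 19775 such genes on the array, and 19 were found only on probe sets that the annotation gives to several histone genes. In all, 26 of the 45 passed the filter on low signals and were tested among 13185 genes, and 19 did not pass.

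Replication-dependent histone genes supply the bulk of nucleosome protein while DNA is copied. Their mRNA is made mainly in S phase, from gene clusters where NPAT and CASP8AP2 gather, and it ends in a stem-loop bound by SLBP instead of a poly(A) tail. H2A, H2B, H3 and H4 form the nucleosome core and H1 sits on the linker DNA. In human cells some clustered genes, among them H1-2, H2AC6, H2BC5, H2BC12 and H2BC21, are known to yield polyadenylated mRNA as well, above all when cells stop dividing.

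PC9 and HCC827 are established human lung adenocarcinoma lines with activating EGFR mutations, and erlotinib inhibits the EGFR kinase. The groups were PC9 in 2 micromolar erlotinib for 8 days, PC9 in DMSO (the solvent) for 8 days, HCC827 in 2 micromolar erlotinib for 8 days and HCC827 in DMSO for 8 days, with 3 arrays each. All groups grew in RPMI medium with fetal bovine serum, and medium and agent were renewed once, after day 4. Erlotinib cells were plated in larger number in flasks and DMSO cells in dishes, although the series description names flasks throughout, so vessel and drug cannot be told apart.

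Messenger RNA was read on 12 one-colour arrays, and every value below is a MAS5 signal, a linear brightness that the authors scaled to 1 trimmed mean on all arrays. The number of arrays limits the precision. All 6 epithelial markers were bright in every group, with gene means of 1519 to 3671. Summed leukocyte markers stayed at 11.2 to 34.0, and 4 of the 5 were under the filter. The 5 fibroblast markers summed to 383 to 465 in PC9 erlotinib and 77.9 to 104 in PC9 DMSO, and to 613 to 680 in HCC827 erlotinib and 154 to 181 in HCC827 DMSO, with COL1A1 and LUM over the filter. Their part in the histone results was not tested. Of the 4 endothelial markers, PECAM1 and CDH5 were over the filter, while VWF and KDR were under it. The 4 summed to 653 to 705 in PC9 erlotinib and 895 to 988 in PC9 DMSO. The HCC827 sums were 11.4 to 19.0 in erlotinib and 12.2 to 12.6 in DMSO. In PC9 the PECAM1 mean was 506.5 in erlotinib and 835.1 in DMSO, while that of CDH5 was 177.8 and 104.9, so the 2 moved in opposite directions. Separate cultures are not stated for the 3 arrays of a group, so p-values measure only the spread between these arrays, which may be technical. In bulk RNA a smaller share of cells in S phase and less histone mRNA per cell cannot be told apart, nor can stem-loop and polyadenylated transcripts.

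Promoters are shown for some of the genes named below, because the families differed in their promoter letters. Of the 64 genes, 56 matched the RefSeq promoter table (GRCh38.p14). Each window of 250 bases before the start was searched on both strands for the octamer ATTTGCAT, for CCAAT and for TATAAA, and no matches overlapped. The octamer was in 13 of 16 H2B genes, 8 of 13 H2A genes, 1 of 8 H3 genes, 0 of 6 H1 genes and 0 of 13 H4 genes, 39.3% of the 56, against 1.63% of all 35116 promoter windows. CCAAT was in 46 of the 56, against 32% of all windows, and TATAAA in 37, against 10.7%. A match is a run of letters and not a shown binding site. Capitals mark these 3 motifs, on either strand, in the sequences below, which give the 120 bases before the start, or the 245 bases between the starts of H2BC4 and H2AC6, a divergent pair.
H2BC4 and H2AC6 (chr6:26123927-26124171, plus strand): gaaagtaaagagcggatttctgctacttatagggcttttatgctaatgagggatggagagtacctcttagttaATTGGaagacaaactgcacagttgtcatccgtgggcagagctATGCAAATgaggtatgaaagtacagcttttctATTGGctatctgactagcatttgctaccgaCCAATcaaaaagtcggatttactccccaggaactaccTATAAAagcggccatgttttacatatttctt
H2BC21 (chr1:149886683-149886802, minus strand): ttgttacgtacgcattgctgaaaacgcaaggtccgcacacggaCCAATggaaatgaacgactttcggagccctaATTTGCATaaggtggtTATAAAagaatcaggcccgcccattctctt
H2BC12 (chr6:27146856-27146975, minus strand): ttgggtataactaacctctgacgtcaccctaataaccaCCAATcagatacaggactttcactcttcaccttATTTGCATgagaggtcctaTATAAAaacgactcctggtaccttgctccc
H3C6, first start (chr6:26224058-26224177, plus strand): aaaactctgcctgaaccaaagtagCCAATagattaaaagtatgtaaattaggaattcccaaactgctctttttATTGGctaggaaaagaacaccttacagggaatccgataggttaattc
H3C6, second start (chr6:26225015-26225134, plus strand): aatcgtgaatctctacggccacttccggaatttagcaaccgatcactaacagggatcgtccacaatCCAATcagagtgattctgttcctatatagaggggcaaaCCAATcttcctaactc
H4C8 (chr6:26285535-26285654, minus strand): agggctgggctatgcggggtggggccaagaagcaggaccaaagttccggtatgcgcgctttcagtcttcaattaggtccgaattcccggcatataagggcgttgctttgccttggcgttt
H3C3 (chr6:26045264-26045383, plus strand): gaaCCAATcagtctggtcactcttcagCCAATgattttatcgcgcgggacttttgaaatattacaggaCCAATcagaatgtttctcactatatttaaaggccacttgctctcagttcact
H1-3 (chr6:26234988-26235107, minus strand): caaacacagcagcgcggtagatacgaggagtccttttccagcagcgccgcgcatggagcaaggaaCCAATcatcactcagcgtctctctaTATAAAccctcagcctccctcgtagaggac
The H2BC4 to H2AC6 interval, H2BC21 and H2BC12 show the octamer beside CCAAT and TATAAA, as in most H2B genes. The H3C6, H3C3 and H1-3 windows hold CCAAT without the octamer, and none of the 3 motifs lies within the 120 bases of H4C8. H3C6 and H3C3 share CCAAT and, as given below, moved in opposite directions. H2BC5 and H2AC25 are not printed. Both lacked the octamer in the 250 bases before the start and, as given below, rose in both lines. The octamer was present in 9 of the 16 tested genes with a promoter that rose in PC9 and in 2 of the 6 that fell. In HCC827 the order was not the same: 4 of 10 that rose, 2 of 4 that fell and 6 of 10 not called held it. Because the octamer lies mostly in H2A and H2B genes, motif and family cannot be told apart in these counts.

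After 8 days of erlotinib the histone genes split in both lines. Several H2A and H2B genes, H3C6 and H4C8 rose, while H3C3, H3C11 and H1-3 fell. In HCC827 the falls of H3C11 and H1-3 missed the threshold with the RNA quality covariate described at the end. In PC9, 17 of the 26 tested genes rose and 7 fell, with 2 not called, where 64.7% of all 13185 genes were called at an adjusted p under 0.05 (36.3% higher and 28.3% lower). In HCC827, 11 rose and 5 fell, with 10 not called, against 51.7% of all genes called (32.2% higher and 19.5% lower). As shares of the 26, 65.4% rose and 26.9% fell in PC9, and 42.3% rose and 19.2% fell in HCC827. The falls in both lines thus lay near the shares of all genes. The median log2 change over the 26 was 0.67 in PC9, against 0.047 over all genes, and 0.084 in HCC827, against 0.068. These counts describe genes that passed the filter: 21 passed in all 4 groups, while H3C11 passed in the 2 DMSO groups, H1-1 and H1-5 in PC9 DMSO, H2AC16 in HCC827 DMSO and H2AC15 in HCC827 erlotinib alone. Without the filter, 17 of 45 genes rose and 7 fell in PC9, with 44.6% of 19775 genes called (25.0% higher and 19.6% lower). The PC9 median over these 45 was 0.0271, against 0.00836 over all 19775 genes, so the higher median above belongs to the genes over the filter. In HCC827 11 rose and 6 fell without it, with 33.9% called (21.5% higher and 12.4% lower). The 19 genes under the filter had signals of 0.1 to 20.0, and in 14 of them the erlotinib and DMSO arrays overlapped in both lines.

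**Figure D1:**
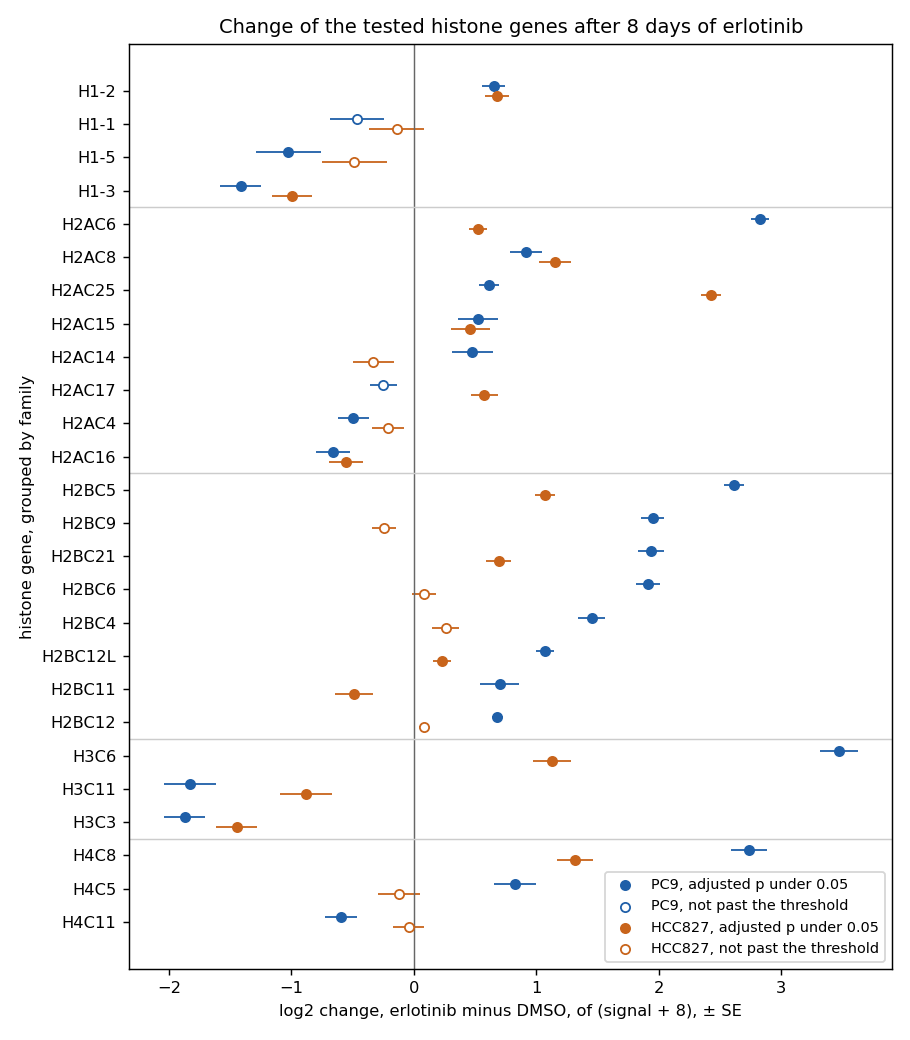
Log2 change (erlotinib minus DMSO, of signal + 8) of the 26 tested histone genes, grouped by family, with PC9 in blue and HCC827 in orange. Points are fitted changes, bars are ± SE, and filled points pass an adjusted p under 0.05. All 8 H2B genes lie right of 0 in PC9, and H3C3, H3C11 and H1-3 lie left of 0 in both lines.

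The linker histones moved in different directions within the family. H1-2, which besides packing chromatin takes part in the response to DNA damage, had signals of 674.5, 606.2 and 598.7 on the PC9 erlotinib arrays, against 428.8, 375.8 and 382.9 in PC9 DMSO. The HCC827 signals were 461.3, 482.4 and 432 in erlotinib, against 332.3, 242.3 and 280.9 in DMSO. All erlotinib arrays were above all DMSO arrays in each line, and H1-2 rose by 0.65 ± 0.10 on the log2 scale in PC9 (adjusted p = 1.94e-05) and by 0.68 ± 0.10 in HCC827 (adjusted p = 2.27e-05). H1-3 had 91.1, 110.6 and 135.1 in PC9 erlotinib, against 378.3, 258.4 and 301.4 in PC9 DMSO, and the arrays did not overlap (log2 change -1.41 ± 0.16, adjusted p = 1.31e-06). In HCC827 erlotinib H1-3 was at 399.8, 288.7 and 277.4, against 722.3, 530.3 and 687.6 in DMSO, again with no overlap (log2 change -0.995 ± 0.16, adjusted p = 0.00010). Both genes code for main-type linker histones and lie on chromosome 6, yet 1 rose and 1 fell in each line.

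H1-5 was the other linker histone that fell in PC9, with 13.8, 8.8 and 3.5 in erlotinib, against 18.7, 24.4 and 33 in DMSO (log2 change -1.02 ± 0.27, adjusted p = 0.00293). Its HCC827 arrays overlapped, at 4.5, 2.3 and 2.1 in erlotinib and 16.2, 2.8 and 5.6 in DMSO (log2 change -0.48 ± 0.27, adjusted p = 0.14), and without HCC827 DMSO array 2 the change was -0.73 and called (adjusted p = 0.0376). H1-1 was at or below 15.4 on every array and was not called in either line. In no H1 gene did the PC9 and HCC827 changes differ past the threshold, but the difference was called for H1-3 with an RNA quality covariate described at the end (-0.81, adjusted p = 0.0266) and for H1-5 without HCC827 DMSO array 1 (-0.87, adjusted p = 0.0422).

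Among the core histones, H2A genes mostly rose, and H2AC6 rose the most in PC9. H2AC6 had 1387, 1255 and 1309 in PC9 erlotinib, against 204.6, 172.1 and 161.2 in PC9 DMSO (log2 change 2.83 ± 0.08, adjusted p = 3.06e-14). HCC827 signals of H2AC6 were 1351, 1347 and 1420 in erlotinib, against 932.8, 924 and 998.1 in DMSO (log2 change 0.53 ± 0.08, adjusted p = 2.57e-05). The PC9 DMSO arrays were thus the low ones, and the erlotinib arrays of the lines lay near each other. H2AC25, a gene of the chromosome 1 histone group, showed the reverse order of lines. Its signals were 1234, 1240 and 1155 in HCC827 erlotinib, against 215.8, 217.9 and 220.9 in HCC827 DMSO (log2 change 2.43 ± 0.08, adjusted p = 1.05e-12). In PC9 they were 66.3, 62 and 61.2 in erlotinib, against 41.8, 34.3 and 39.2 in DMSO, a rise of 0.62 ± 0.08 (adjusted p = 5.22e-06). A second probe set of H2AC25 also rose in both lines, by 1.78 in HCC827 and 0.61 in PC9.

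H2AC8, an octamer-holding gene, rose to a similar degree in both lines. It had 74, 57.5 and 62.5 in PC9 erlotinib, against 25.4, 27.7 and 39 in PC9 DMSO (log2 change 0.92 ± 0.13, adjusted p = 1.35e-05). In HCC827 the values were 122.2, 139.5 and 121.6 in erlotinib, against 48.8, 51.3 and 59.2 in DMSO (log2 change 1.15 ± 0.13, adjusted p = 2.22e-06), so neither line's groups overlapped. H2AC17 was at 36.6, 28.4 and 32.6 in HCC827 erlotinib, against 18.5, 18.6 and 20.1 in DMSO (log2 change 0.58 ± 0.11, adjusted p = 0.000458). In PC9 H2AC17 was at 26.7, 23.8 and 26.4 in erlotinib and 30.2, 35.7 and 30 in DMSO (log2 change -0.25 ± 0.11, adjusted p = 0.0664). It was the 1 gene called in HCC827 alone, but 4 alternative settings called it lower in PC9.

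The remaining H2A genes were dim or moved little. H2AC16 was at 0.7, 0.5 and 1.6 in PC9 erlotinib, against 5.6, 7.5 and 5.2 in DMSO, and at 7.5, 8.2 and 4.9 in HCC827 erlotinib, against 16, 11 and 14.4 in DMSO. It was called lower in both lines (log2 change -0.66 ± 0.14, adjusted p = 0.00064 in PC9 and -0.55 ± 0.14, adjusted p = 0.00362 in HCC827). H2AC15 was called higher in both (log2 change 0.53 in PC9 and 0.46 in HCC827), but its second probe set, under the filter, overlapped in both lines, with HCC827 means of 3.7 in erlotinib and 4.57 in DMSO. All PC9 arrays of H2AC15 and H2AC16 were below the table median of 13, so these PC9 calls rest on signals near background. H2AC14 rose in PC9 (log2 change 0.48) and H2AC4 fell there (-0.49), while in HCC827 neither was called (-0.33 and -0.21).

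The H2B genes were the family that moved 1 way in PC9: 8 of 8 tested genes rose, with a median log2 change of 1.68, where 36.3% of all genes rose. As given below, the probe sets of H2BC5, H2BC6, H2BC9, H2BC12L and H2BC21 can bind related transcripts, so the 8 readings may not be independent. H2BC5 had 1078, 1052 and 982.1 in PC9 erlotinib, against 178.8, 155.5 and 154.4 in PC9 DMSO (log2 change 2.62 ± 0.08, adjusted p = 2.19e-13). In HCC827 it had 259.1, 255.9 and 265.4 in erlotinib, against 112.9, 112.6 and 134.3 in DMSO (log2 change 1.07 ± 0.08, adjusted p = 2.67e-08). It rose without overlap in both lines, and its second probe set rose too, by 2.76 in PC9 and 0.48 in HCC827. H2BC21, whose promoter is printed above, had 319, 261.1 and 333.6 in PC9 erlotinib, against 76.7, 77.2 and 66 in DMSO (log2 change 1.94 ± 0.10, adjusted p = 1.14e-10). In HCC827 H2BC21 had 789.1, 684.4 and 634.8 in erlotinib, against 465.5, 422.3 and 404 in DMSO (log2 change 0.69 ± 0.10, adjusted p = 3.64e-05). As with H2AC6, the low arrays were those of PC9 DMSO.

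In HCC827 the H2B family did not move 1 way: 3 genes rose, 1 fell and 4 were not called, shares near the 32.2% higher and 19.5% lower of all genes. H2BC9 had 283.9, 265.7 and 264.6 in PC9 erlotinib, against 70.7, 56.7 and 66 in DMSO (log2 change 1.95 ± 0.10, adjusted p = 5.09e-11). In HCC827 it had 141.7, 126 and 124.4 in erlotinib, against 171.5, 141.5 and 154.6 in DMSO, with overlapping arrays (log2 change -0.24 ± 0.10, adjusted p = 0.0514). H2BC9 passed the threshold as lower in HCC827 under 12 of the alternative settings. H2BC6 had 752.2, 613.3 and 723.4 in PC9 erlotinib, against 181.3, 195.2 and 159.9 in DMSO (log2 change 1.91 ± 0.10, adjusted p = 8.02e-11). Its HCC827 values of 321.6, 252.9 and 273.1 in erlotinib and 270.6, 261.7 and 261.1 in DMSO overlapped (log2 change 0.09 ± 0.10, adjusted p = 0.493).

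H2BC12 moved by a small but closely measured amount. Its signals were 2211, 2338 and 2216 in PC9 erlotinib, against 1389, 1393 and 1417 in DMSO (log2 change 0.68 ± 0.04, adjusted p = 7.84e-10). They were 1683, 1692 and 1725 in HCC827 erlotinib, against 1612, 1596 and 1606 in DMSO (log2 change 0.08 ± 0.04, adjusted p = 0.119). The HCC827 groups did not overlap, but the change missed the threshold. H2BC11 was the 1 gene called in opposite directions. It had 36.5, 43.4 and 44.2 in PC9 erlotinib, against 31.3, 22.9 and 14.8 in DMSO (log2 change 0.70 ± 0.16, adjusted p = 0.000971), and 23.9, 27.1 and 21.5 in HCC827 erlotinib, against 39.3, 35.7 and 36 in DMSO (log2 change -0.49 ± 0.16, adjusted p = 0.0167). The HCC827 fall was lost without HCC827 erlotinib array 3 (log2 change -0.43, adjusted p = 0.0643) or without HCC827 DMSO array 1 (-0.45, adjusted p = 0.057).

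The divergent pair H2BC4 and H2AC6, printed above, was the only one of the head-to-head histone pairs with both genes tested. H2BC4 had 56.3, 48.9 and 45.6 in PC9 erlotinib, against 13, 11.3 and 15.6 in DMSO, and rose by 1.45 ± 0.11 (adjusted p = 7.42e-09). It had 75.1, 74.1 and 72.9 in HCC827 erlotinib, against 57.6, 58.9 and 65.2 in DMSO (log2 change 0.26 ± 0.11, adjusted p = 0.0573). H2AC6 and H2BC4 both had their low arrays in PC9 DMSO. H2BC12L, a related gene on chromosome 21, rose in both lines, by 1.07 ± 0.07 in PC9 and 0.23 ± 0.07 in HCC827.

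**Figure D2:**
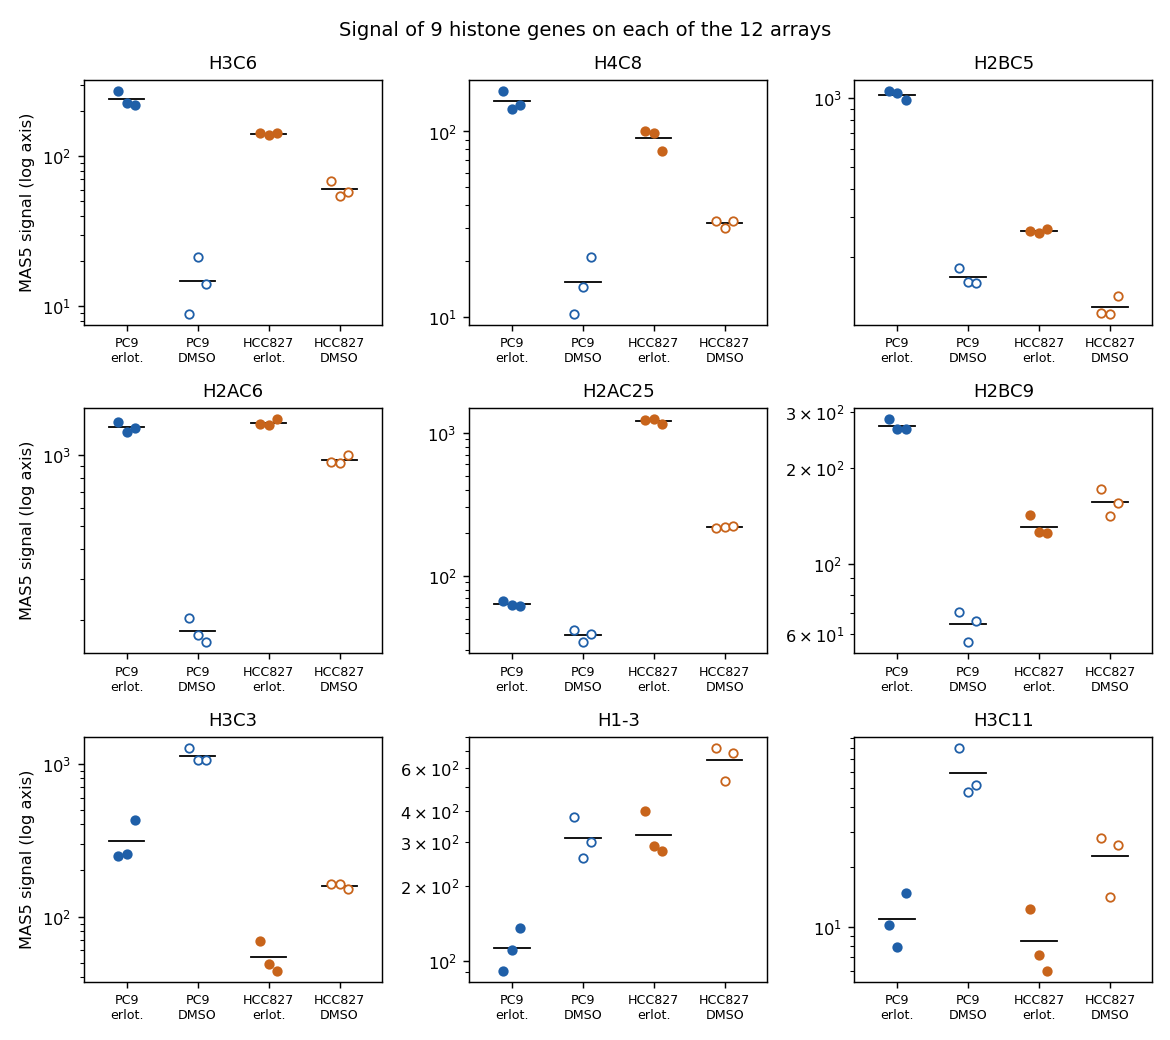
MAS5 signal on a log axis (range set per gene) for 9 histone genes on each array, erlotinib (filled) left of DMSO (open) within PC9 (blue) and HCC827 (orange). Short lines are group means of 3 arrays. H3C6, H4C8, H2BC5, H2AC6 and H2AC25 are higher in erlotinib in both lines, H2BC9 is higher in PC9 erlotinib and overlaps in HCC827, and H3C3, H1-3 and H3C11 are lower in both.

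The 3 tested H3 genes, which code for the same core histone, went apart. H3C6 had 273.3, 226.7 and 218.4 in PC9 erlotinib, against 8.9, 21.3 and 14.1 in PC9 DMSO (log2 change 3.47 ± 0.16, adjusted p = 1.28e-11). The HCC827 arrays gave 142.9, 137.9 and 143.5 in erlotinib, against 68.7, 54.4 and 58 in DMSO (log2 change 1.13 ± 0.16, adjusted p = 1.52e-05). H3C6 had the largest fitted rise of the 26 tested genes in PC9, but its PC9 DMSO arrays lay around the table median of 13, and with a constant of 32 it rose by 2.54, against 2.68 for H2AC6. Its second probe set rose by 1.23 in PC9 and changed by 0.32 in HCC827 (adjusted p = 0.0752). H3C3 had 247.9, 257.7 and 425.2 in PC9 erlotinib, against 1268, 1056 and 1054 in PC9 DMSO (log2 change -1.87 ± 0.17, adjusted p = 6.95e-08). In HCC827 it was at 69.3, 48.7 and 44.3 in erlotinib, against 162, 163 and 151.8 in DMSO (log2 change -1.45 ± 0.17, adjusted p = 2.85e-06). H3C11 followed H3C3, at 10.2, 7.9 and 14.7 in PC9 erlotinib, against 79.9, 48 and 52 in DMSO (log2 change -1.83 ± 0.21, adjusted p = 1.19e-06). Its HCC827 arrays read 12.3, 7.2 and 6 in erlotinib, against 27.9, 14.1 and 25.8 in DMSO (log2 change -0.88 ± 0.21, adjusted p = 0.00245).

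The H4 genes were few, since most H4 probe sets are shared. H4C8 had 165.6, 132.7 and 139.7 in PC9 erlotinib, against 10.4, 14.5 and 21.1 in PC9 DMSO (log2 change 2.74 ± 0.15, adjusted p = 1.28e-10). H4C8 read 100, 98 and 78.1 in HCC827 erlotinib, against 32.9, 30.1 and 32.8 in HCC827 DMSO (log2 change 1.32 ± 0.15, adjusted p = 1.74e-06). H4C8 rose without overlap in both lines, and its second probe set rose by 2.05 in PC9 and by 1.04 in HCC827. H4C11 was at 13.7, 13.8 and 19.6 in PC9 erlotinib, against 26.8, 29 and 27.1 in DMSO (log2 change -0.60 ± 0.13, adjusted p = 0.00074). In HCC827 it was at 62, 86.4 and 69 in erlotinib and 78.3, 67 and 77.8 in DMSO, with overlap (log2 change -0.04 ± 0.13, adjusted p = 0.806). H4C5, dim on all arrays, rose by 0.83 ± 0.17 in PC9 and changed by -0.12 ± 0.17 in HCC827 (adjusted p = 0.581).

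Of the 17 genes that rose in PC9, 10 also rose in HCC827, 58.8% of the PC9 rises and 90.9% of the 11 HCC827 rises, where over all genes tested the shared rises were 55.8% of those in PC9 and 63.0% of those in HCC827. They were H1-2, H2AC6, H2AC8, H2AC15, H2AC25, H2BC5, H2BC12L, H2BC21, H3C6 and H4C8. H1-3, H2AC16, H3C3 and H3C11 fell in both, 57.1% of the PC9 falls and 80% of the HCC827 falls, where over all genes tested these shares were 40.9% and 59.5%. H3C11 and H2AC16 passed the filter only through DMSO groups, and H2AC15 only through HCC827 erlotinib, where each was high. These shares are therefore descriptive only. With the RNA quality covariate described at the end, H3C3 alone of these falls stayed called in HCC827. In PC9, 17 genes had all erlotinib arrays above and 8 all below the DMSO arrays, where 64.9% of all genes did not overlap (36.5% above and 28.3% below). In HCC827, 13 lay above and 6 below, where 62.1% did not overlap (37.6% above and 24.5% below). Because histone paralogues are near-identical, 6 of the tested genes were read by _x_at probe sets (H2AC14, H2BC5, H2BC6, H2BC9, H2BC12L and H4C11) and 2 by _s_at ones (H2AC6 and H2BC21), suffixes that mark probes able to bind related transcripts, so their gene assignment is uncertain.

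The 16 shared probe sets over the filter, each named for several histone genes, were read apart from the single-gene ones. In PC9, 13 rose and 1 fell, where 58.8% of all 31123 probe sets were called (33.4% higher and 25.4% lower). In HCC827, 5 rose and 1 fell, where 46.5% were called (25.3% higher and 21.2% lower). The line difference was called higher in 8 and lower in 1, where 38.9% of all probe sets were called (21.2% higher and 17.7% lower). In DMSO, 1 was higher and 13 lower in PC9 than in HCC827, where 71.5% were called (34.2% higher and 37.3% lower). A probe set shared by H2BC4, H2BC6, H2BC7, H2BC8 and H2BC10 had 284.2, 244.3 and 267.1 in PC9 erlotinib, against 72.7, 69.2 and 71.6 in DMSO (log2 change 1.78 ± 0.09, adjusted p = 8.83e-11). HCC827 arrays read 176.7, 156.5 and 145.2 in erlotinib and 159.3, 149.5 and 167.1 in DMSO, with overlap (log2 change 0.0042 ± 0.09, adjusted p = 0.975). Both probe sets shared by H2BC8 and H2BC11 rose in both lines, the first by 0.98 ± 0.11 in PC9 and 0.62 ± 0.11 in HCC827 and the second by 0.95 ± 0.13 and 0.34 ± 0.13. H2BC11's own probe set fell in HCC827, so it and its shared probe sets did not move together there.

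**Figure D3:**
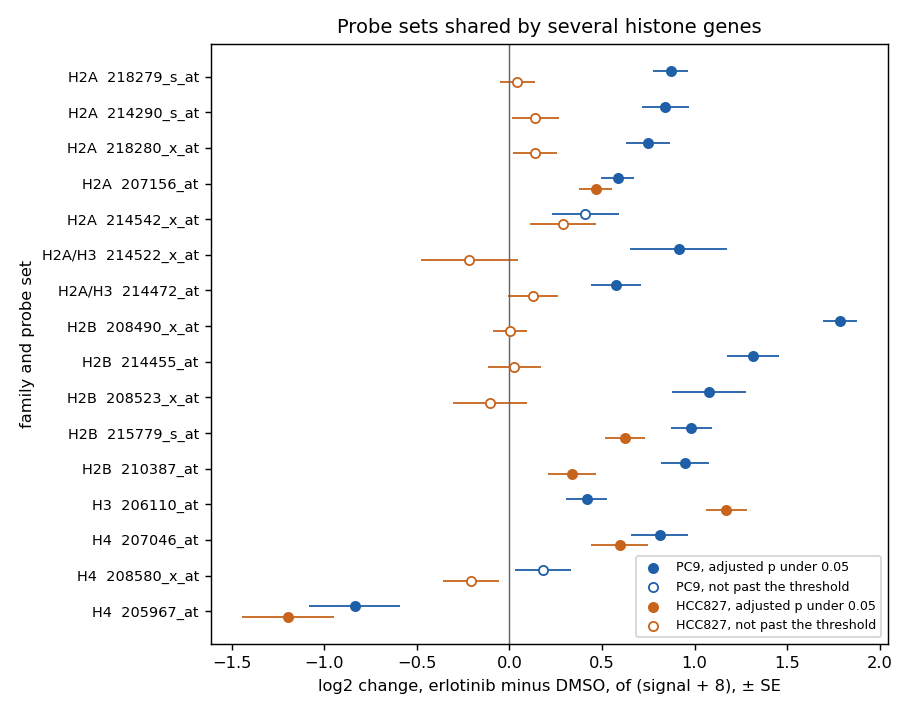
Log2 change (erlotinib minus DMSO, of signal + 8, ± SE) of the 16 shared histone probe sets over the filter, labelled by family, with PC9 in blue and HCC827 in orange. Filled points pass an adjusted p under 0.05. All 5 H2B probe sets rose in PC9, and 1 H4 probe set, the lowest line of the plot, fell in both lines.

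Shared H4 probe sets, each named for 14 H4 genes, disagreed with each other. The first had 450.1, 808.7 and 448.6 in PC9 erlotinib, against 1425, 589.9 and 1123 in DMSO, and the arrays overlapped (log2 change -0.83 ± 0.25, adjusted p = 0.0081). In HCC827 the first had 67.3, 59.4 and 54.6 in erlotinib, against 145.3, 159.7 and 140.7 in DMSO, with no overlap (log2 change -1.20 ± 0.25, adjusted p = 0.000841). With the RNA quality covariate described at the end, this HCC827 fall was not called. The PC9 fall rests on PC9 DMSO array 1, without which it missed the threshold (log2 change -0.57, adjusted p = 0.0501), and its adjusted p was 6.74e-05 to 0.0455 in the other alternative fits. The second rose instead, by 0.81 in PC9 and 0.59 in HCC827, at signals of 6.5 to 12.3 in PC9 erlotinib and 0.7 to 2.2 in PC9 DMSO, and the third was not called in either line. The H3 probe set named for 10 H3 genes had 164.7, 158.2 and 184.5 in HCC827 erlotinib, against 69.9, 66.4 and 75.4 in DMSO (log2 change 1.17 ± 0.11, adjusted p = 2.83e-07). In PC9 it had 40.2, 41.5 and 41 in erlotinib, against 33.5, 24.2 and 28.7 in DMSO (log2 change 0.42 ± 0.11, adjusted p = 0.00359).

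The lines differed before any drug, in opposite directions for different histones. In DMSO, 7 of the 26 genes were higher and 15 lower in PC9 than in HCC827, where 36.8% and 39.4% of all genes were higher and lower (76.2% called). H3C3 was the largest excess in PC9, at 1268, 1056 and 1054 in PC9 DMSO, against 162, 163 and 151.8 in HCC827 DMSO (log2 difference 2.76 ± 0.17, adjusted p = 2.33e-10). H2BC21 was the largest deficit, at 76.7, 77.2 and 66 in PC9 DMSO, against 465.5, 422.3 and 404 in HCC827 DMSO (log2 difference -2.43 ± 0.10, adjusted p = 1.74e-12). H2AC6 (-2.36), H2AC25 (-2.29), H2BC4 (-1.69) and H3C6 (-1.62) were also lower in PC9 DMSO. These differences share the DMSO arrays with the drug comparisons, so they are set beside them as values only.

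**Figure D4:**
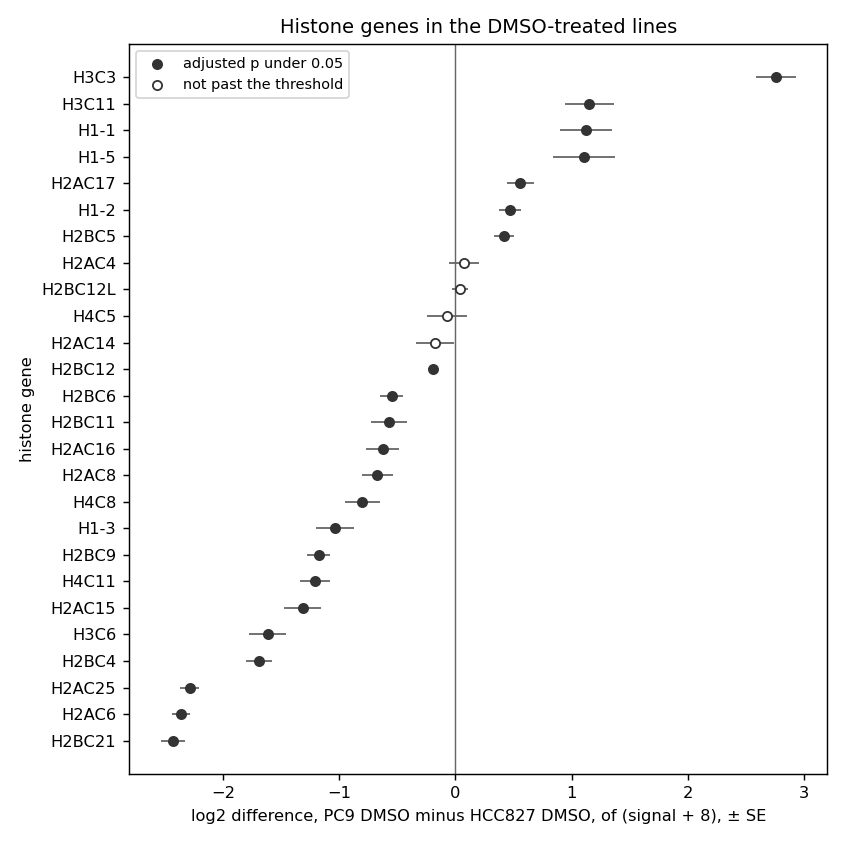
Log2 difference (PC9 DMSO minus HCC827 DMSO, of signal + 8, ± SE) of the 26 tested histone genes, ordered by size. Filled points pass an adjusted p under 0.05. H3C3 lies highest at 2.76 and H2BC21 lowest at -2.43.

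Built from the same 12 arrays, the drug response itself differed between the lines in 17 of the 26 genes: 13 changed more positively in PC9 and 4 less, where 45.2% of all genes were called (21.2% higher and 23.9% lower). All 8 tested H2B genes were among the 13, with H2BC9 at 2.19 ± 0.14 (adjusted p = 3.85e-09) and H2BC6 at 1.83 ± 0.14 (adjusted p = 3.54e-08). Several H2B probe sets can bind related transcripts, so these 8 may not be independent readings. H2AC6 had a difference of 2.30 ± 0.11 (adjusted p = 1.18e-10) and H3C6 one of 2.34 ± 0.22 (adjusted p = 3.7e-07), less than their SE apart. H3C6 was dim in PC9 DMSO, and its difference was 1.63 with a constant of 32 in place of 8, and its second probe set gave 0.91 ± 0.20. H2AC25 ran the other way, at -1.81 ± 0.12 (adjusted p = 4.37e-09), as did H3C11, H2AC17 and H4C11 to a lesser degree. H3C3 (-0.42, adjusted p = 0.163), H1-3 (-0.42, adjusted p = 0.155) and H1-2 (-0.03, adjusted p = 0.883) missed the threshold. The H3C3 difference passed it with a constant of 32 (-0.63, adjusted p = 0.0223), with the actin ratio below as a covariate (-0.89, adjusted p = 0.0126), without HCC827 erlotinib arrays 2 and 3 (-0.76, adjusted p = 0.0489) and without PC9 erlotinib array 3 (-0.67, adjusted p = 0.0089). For H1-2 the 95% interval -0.32 to 0.26 bounds that difference.

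Genes of DNA synthesis, which are active in S phase like the histone genes, fell almost throughout. Of 25 tested, 24 fell in PC9 (median log2 change -0.76) and 23 in HCC827 (median -0.39). Over all genes tested, 28.3% fell in PC9 (median 0.047) and 19.5% in HCC827 (median 0.068). The exceptions were POLD1 in both lines and POLA1 in HCC827, which were not called. GINS4, a subunit of the replicative helicase, had 51.8, 53.9 and 59.9 in PC9 erlotinib, against 175, 140.1 and 160.6 in DMSO, and 44.4, 33.1 and 32.2 in HCC827 erlotinib, against 82.5, 74.6 and 80.4 in DMSO. Its log2 change was -1.40 ± 0.12 in PC9 (adjusted p = 2.74e-08) and -0.98 ± 0.12 in HCC827 (adjusted p = 3.54e-06). GINS2 of the same complex and the polymerase subunit POLE2 fell in PC9, with log2 changes of -1.36 and -1.28. The licensing factor CDT1 and POLE2 fell in HCC827, with -1.18 and -0.93. GINS2 fell in HCC827 as well (means of 484.6 in erlotinib and 778.3 in DMSO), and CDT1 in PC9 (88.4 and 201.5).

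The machinery that makes histone mRNA fell in part. Of 27 tested genes, 4 rose and 14 fell in PC9 (median -0.25), and 4 rose and 10 fell in HCC827 (median -0.15). The falls were 51.9% of the 27 in PC9 and 37.0% in HCC827, and the rises 14.8% in each line. Over all genes tested, 36.3% rose and 28.3% fell in PC9, and 32.2% rose and 19.5% fell in HCC827. SLBP, which binds the histone stem-loop, had 523.7, 490.6 and 535.4 in PC9 erlotinib, against 760.3, 851 and 878.8 in DMSO (log2 change -0.67 ± 0.07, adjusted p = 6.37e-07). HCC827 cells had 776.2, 814.5 and 900.7 in erlotinib, against 997.6, 1120 and 1118 in DMSO (log2 change -0.37 ± 0.07, adjusted p = 0.000492), and neither line's groups overlapped. NPAT, the cyclin E target that drives histone transcription, was not called in either line (0.15 in PC9 and -0.05 in HCC827), nor was CASP8AP2 (0.26 and -0.24). CASP8AP2 was called higher in PC9 with the mean of probe sets (adjusted p = 0.0475), without PC9 erlotinib array 3 (0.33, adjusted p = 0.0397) and without PC9 DMSO array 2 (0.39, adjusted p = 0.0065). It was called lower in HCC827 under quantile normalization, median centring and that line alone (adjusted p = 0.0237 to 0.0455). LSM10, of the U7 particle that trims histone mRNA, and CCNE1 (cyclin E) fell in PC9, with log2 changes of -0.997 and -0.93. In HCC827 CCNE1 was higher in erlotinib, without overlap, with means of 657.4 in erlotinib and 590.7 in DMSO. LSM10 overlapped there, with means of 140.5 in erlotinib and 156.8 in DMSO. CDK2 fell in HCC827 (-0.59), and its PC9 arrays overlapped. CTIF, a translation factor that works with SLBP, rose by 1.46 ± 0.13 in PC9 and 2.07 ± 0.13 in HCC827, and HINFP, an activator of H4 genes, rose by 0.63 in HCC827. In PC9 the HINFP means were 158.9 in erlotinib and 97.7 in DMSO, without overlap.

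Chaperones and importers of histones fell more often than they rose. Of 26 tested, 2 rose and 19 fell in PC9 (median -0.29), and 3 rose and 11 fell in HCC827 (median -0.16). The falls were 73.1% of the 26 in PC9 and 42.3% in HCC827. Over all genes tested, 36.3% rose and 28.3% fell in PC9, and 32.2% rose and 19.5% fell in HCC827. HJURP, the chaperone of CENPA, had 329.2, 427.5 and 348.1 in PC9 erlotinib, against 667.6, 631.5 and 655.5 in DMSO, and 415, 451.9 and 437.4 in HCC827 erlotinib, against 842.2, 877.3 and 799.1 in DMSO (log2 changes -0.82 and -0.94). ASF1B, which hands H3 and H4 to the replication fork, had log2 changes of -0.79 in PC9 and -0.85 in HCC827, and CHAF1A, of the replication-coupled assembly factor, -0.67 in HCC827. CHAF1A was lower in PC9 too, with means of 100.2 in erlotinib and 146.9 in DMSO and no overlap. UBN2, a partner of the chaperone HIRA, rose by 1.00 ± 0.11 in PC9. In HCC827 the UBN2 means were 112.1 in erlotinib and 70.07 in DMSO, again without overlap. Replication-independent histones, which are made outside S phase as well, also moved in both directions. Of 9 tested, 1 rose and 4 fell in each line (11.1% and 44.4%). All genes tested gave 36.3% higher and 28.3% lower in PC9, and 32.2% higher and 19.5% lower in HCC827. The medians of the 9 were -0.11 in both lines, and their PC9 median was -0.26 under median centring. CENPA, the centromeric H3, had log2 changes of -1.21 in PC9 and -0.76 in HCC827 and fell in both. H2AZ1 and MACROH2A1 fell in PC9 (-0.30 and -0.25), although MACROH2A1 was at 0.00978 (adjusted p = 0.902) with the mean of its probe sets. H2AX and H1-10 fell in HCC827 (-0.41 and -0.29), with H1-10 lost without HCC827 erlotinib array 3 or HCC827 DMSO array 1 or 2 (adjusted p = 0.0552 to 0.0677), and the 1 gene that rose in each line was H3-3A. Its PC9 rise of 0.14 was lost in 9 of the 12 fits without 1 array.

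**Figure D5:**
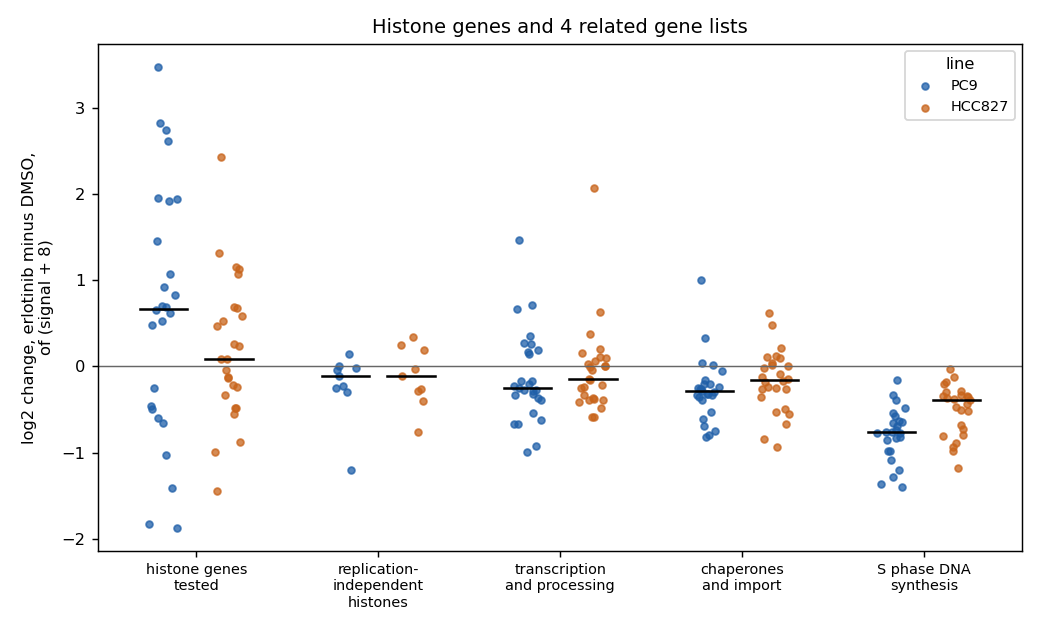
Log2 change (erlotinib minus DMSO, of signal + 8) of each tested gene in PC9 (blue) and HCC827 (orange), for the histone genes and 4 related lists. Black bars are medians. The histone genes spread from -1.87 to 3.47 in PC9, while 24 of 25 DNA synthesis genes fell there, where 28.3% of all genes tested fell.

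RNA quality moved with the drug in HCC827. The actin 3'/5' signal ratio, which rises as RNA is degraded or copied incompletely, was 3.03 ± 0.598 in HCC827 erlotinib and 2.17 ± 0.0563 in HCC827 DMSO, and 2.22 ± 0.271 in PC9 erlotinib and 2.18 ± 0.152 in PC9 DMSO (SD, n = 3 each). With the log2 ratio as a covariate, 1 of the 5 HCC827 falls remained called, that of H3C3. H1-3 then had a log2 change of -0.59 (adjusted p = 0.0539), H3C11 -0.57 (adjusted p = 0.192), H2AC16 -0.39 (adjusted p = 0.186) and H2BC11 -0.22 (adjusted p = 0.511). Without HCC827 erlotinib arrays 2 and 3, which had the higher ratios, 3 histone genes were called lower in HCC827: H3C3 (-1.11), H1-3 (-0.67) and H2AC4 (-0.47). H3C11, H2AC16 and H2BC11 were not past the threshold there, and the 1 erlotinib array left is assumed to vary like the other groups. Of the 11 HCC827 rises, 10 stayed past the threshold in both of these fits, that of H2AC15 being the exception. The HCC827 falls of CENPA (-0.35, adjusted p = 0.158) and H1-10 (-0.25, adjusted p = 0.194) also missed it with the covariate. So did the HCC827 fall of the shared H4 probe set. The part of RNA quality in these falls was not tested further.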

How the data were processed

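The deposited values are linear signal intensities of probe sets, made by the authors with MAS5 per the submitters' processing notes (version not given in the sources used here). The values show that each array was scaled to a 2% trimmed mean of 150. The NuGEN Ovation kits amplified and labelled the RNA, per the labels' protocols. Array medians were 11.1 to 14.5, replicate arrays correlated at r of 0.9929 to 0.9973, and no sample was left out.

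Of 54675 probe sets, 41091 carry 1 symbol, 1801 several and 11721 none. The brightest single-symbol probe set per gene was used, and 64 of 64 histone gene IDs matched RefSeq. Genes with at least 1 group mean at the table median of 13 were kept, and log2(signal + 8) was fitted in limma 3.58.1 (R 4.3.3) over all 12 arrays with an intensity trend. Calls used a Benjamini-Hochberg adjusted p under 0.05 over all 13185 genes, or over 31123 probe sets for shared ones. The script was tested on simulated data. The constant of 8 understates changes of dim genes.

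Full statistics went to the 6 largest non-overlapping called rises and falls per line, the 4 largest line differences each way, H1-2, H2AC6, H2BC5, H2BC12 and H2BC21, up to 3 genes per list and line, and SLBP, NPAT and CASP8AP2. Other members were named for small counts. The members, lists and tests were chosen with earlier results of these data known. Alternatives were constants of 1 and 32, quantile normalization, median centring, no filter or the 70th percentile (signal 83.7), the mean of probe sets, single probe sets, no trend, 1 line alone, a replicate block, an actin ratio covariate, and fits without 1 array or without HCC827 erlotinib arrays 2 and 3. Deviations of same-numbered arrays correlated at -0.255, -0.194 and -0.0201 in PC9 and 0.0106, 0.131 and 0.0115 in HCC827, so the numbers do not pair samples.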

Additional observations from a re-analysis of the deposited data

Results flagged for a closer look

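In 17 histone genes the erlotinib response differed between the lines by the test of the difference itself (limma, adjusted p under 0.05). The values below are the PC9 log2 change minus the HCC827 log2 change. The differences above 0 included the H3 gene H3C6 at 2.34, with 0.91 for its second probe set, and the H2A gene H2AC6 at 2.30. All 8 tested H2B genes were above 0: H2BC9 at 2.19, H2BC6 at 1.83, H2BC5 at 1.54, H2BC21 at 1.25, H2BC4 at 1.19, H2BC11 at 1.19, H2BC12L at 0.84 and H2BC12 at 0.60. Their readings may not be independent, since several of their probe sets can bind related transcripts. The H4 genes H4C8 (1.42) and H4C5 (0.94) and the H2A gene H2AC14 (0.81) were also above 0. Below 0 were H4C11 at -0.56, H2AC17 at -0.83, H3C11 at -0.95 and H2AC25 at -1.81. The H4C11 difference was lost in 6 alternative fits, among them without PC9 erlotinib array 1 (-0.50, adjusted p = 0.052), without HCC827 erlotinib array 2 (-0.43, adjusted p = 0.0663) and without HCC827 DMSO array 2 (-0.49, adjusted p = 0.0598). That of H3C11 was lost with a constant of 1 (-1.04, adjusted p = 0.0684).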

How the results depend on the processing

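Leaving out 1 array at a time gave 16 to 17 histone genes higher and 7 to 8 lower in PC9, 9 to 12 higher and 4 to 7 lower in HCC827, 13 higher and 3 to 5 lower in the line difference, and 7 higher and 15 lower between the DMSO groups. For shared probe sets the ranges were 13 to 14 higher and 0 to 1 lower in PC9, and 4 to 5 higher in HCC827. Median centring moved the median of all genes in PC9 to -0.0996, against 0.047 as reported, and histone changes there are relative to it. The replicate block gave 17 higher and 7 lower in PC9 and 11 higher and 6 lower in HCC827, and moved no histone count by more than 1.5 times.

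The PC9 histone median, 0.67 as reported, was 0.0271 without the filter and 0.44 with a constant of 32. It was 0.521 under median centring and 1.07 with the 70th percentile filter. The 70th percentile filter, which tests fewer genes, gave 2 histone genes lower in PC9, 3 lower in HCC827, 1 lower in the line difference and 3 higher between the DMSO groups, and 8 shared probe sets higher in PC9, 5 higher in the difference and 8 lower between the DMSO groups. With the actin covariate, 1 histone gene and 0 shared probe sets were lower in HCC827, 4 shared probe sets were higher in the difference and 1 replication-independent histone was lower in HCC827. Without HCC827 erlotinib arrays 2 and 3 these were 3 histone genes lower in HCC827, 5 shared probe sets higher in the difference, 2 replication-independent histones lower and 2 transcription and processing genes higher in HCC827. The PC9 count of 1 replication-independent histone higher became 0 under median centring, no filter, single probe sets, no trend, PC9 alone and without HCC827 erlotinib arrays 2 and 3, and 2 with the mean of probe sets, and was 0 to 1 without single arrays (0 in 9 of 12). In HCC827 it became 0 under median centring, 2 with that line alone, and 1 to 2 without single arrays. The mean of probe sets gave 7 transcription and processing genes higher in PC9.

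Signs turned in uncalled changes and in the called PC9 fall of MACROH2A1, and the cause was not tested. Without single arrays the H1-2 line difference ranged between -0.141 and 0.0802. Likewise, in HCC827 H4C11 ranged between -0.163 and 0.0527, H2BC6 between -0.00861 and 0.16 and NPAT between -0.105 and 0.0592, and NPAT was 0.0744 without erlotinib arrays 2 and 3. NPAT in PC9 was -0.000632 under median centring, MACROH2A1 in PC9 0.00978 with the mean of probe sets, the H2AC16 difference 0.0264 with a constant of 32, and the HCC827 histone median -0.0421 without the filter. H2AC17 passed as lower in PC9 under quantile normalization, median centring, the mean of probe sets and no trend (adjusted p = 0.00153 to 0.0262), and H2BC12 as higher in HCC827 under quantile normalization (adjusted p = 0.0229). Dim genes are limited by signal over background.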
